A study of Mus musculus with 4 samples.

Results

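The isoforms described here are the multi-exon full splice match isoforms of genes that had 2 or more of them, followed by where they began, where they ended and how long they were. A full splice match is a transcript read from end to end whose introns are all those of 1 annotated transcript, while its outer ends may lie elsewhere. The rule kept isoforms of that class with at least 2 exons in the deposited gene models, in genes with at least 2 such isoforms, and it used no expression value. It found 14948 isoforms of 4258 genes, out of 19600 full splice match isoforms and of 68012 isoforms of 10482 genes in all.

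The study sequenced complete cDNA molecules of single mouse oocytes, blastomeres and embryonic stem cells on a PacBio instrument (HIT-scISOseq), with a cell barcode and a unique molecular identifier (UMI) on each molecule. The mice were labelled as DBA/2J x C57BL/6J, while the paper names C57BL/6J females and DBA/2NCrl males. By the paper, oocytes were collected without mating and embryos after it, so only the embryos could carry the genome of the DBA males. Between oocytes and embryos, mating and paternal genome cannot be told apart from stage. No other genotype or treatment is named that separates these groups, and the stages were collected at successive times after hormone-induced ovulation. There were 10 oocytes, 9 zygotes, 5 early 2-cell (E2C), 6 late 2-cell (L2C), 5 4-cell, 4 8-cell and 4 16-cell embryos, 43 in all with 121 cells, and the cells of an embryo were summed to give 1 replicate. A further 40 cells (22 of the 32-cell stage, 13 of the blastocyst and 5 mESC, cultured embryonic stem cells) name no embryo, so they are given by range and median and enter no test. The paper gives the mESC as the male line E14 Tg2A, so origin and culture separate them from the embryos.

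Poly(A) RNA gets its 3′ end when the nascent transcript is cut downstream of a signal, most often the hexamer AATAAA or ATTAAA, and a tail is added. A gene with several such sites makes messages with short or long 3′ untranslated regions, and the longer form carries more binding sites for proteins and small RNAs that act on translation, tail length and decay. The mouse oocyte grows while it transcribes, then falls silent, and lives on its stored messages through fertilization until the embryonic genome is switched on, chiefly in the late 2-cell embryo. In those silent cells stored messages are controlled mostly through their 3′ untranslated regions, by lengthening or removal of the tail. The oocyte and zygote are called maternal below, and L2C to 16-cell are called embryonic.

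Isoforms of a gene varied both at their ends and in splicing. The median gene had 3 isoforms, 1836 genes had exactly 2, 863 had 5 or more, and Ube2d3, a ubiquitin-conjugating enzyme, had the most, 42. The isoforms of a gene ended over a median span of 331 nt, with quartiles of 15.0 and 1156 nt, and 2976 genes had ends at least 100 nt apart. They began over a median span of 174 nt. The 14948 isoforms shared 8769 intron chains, and of the 3437 chains with 2 or more isoforms 3334 had ends at least 100 nt apart, with a median span of 499 nt. Chains with 2 or more isoforms occurred in 2780 genes. The last splice acceptor was the same for all isoforms in 3537 genes and differed in 721. Isoforms were 136 to 5244 nt long, with a median of 1428.5 nt and 5 exons.

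The ends were checked against sequence from annotated transcripts (GENCODE, mouse build GRCm38, the mm10 build of the files). Of 11921 ends that lay in an annotated exon with 40 bases before them, 53.2% had AATAAA or ATTAAA, on the sense strand, in those 40 bases. Windows of the same length 200 nt upstream held either hexamer in 3.32% of 11910 cases. In genes with ends at least 100 nt apart the most distal end had a hexamer in 68.4% of 1895 cases, the most proximal in 38.9% of 2905 and the ends in between in 42.6% of 4841. Ends outside annotated exons could not be scored, and fewer distal than proximal ends were, so these shares are not like for like. The hexamer began a median of 24 nt before the end, with quartiles of 21 and 29 nt. Within 30 nt of an annotated transcript end lay 63.8% of the distal but 31.4% of the proximal ends. Of 14394 isoforms of genes with an annotated stop codon, 87.4% ended past the last one, but of the proximal ends only 71.2% did. At least 12 A in the 20 bases that follow, in a row or not, were found after 247 of the 9109 ends with sequence there, 2.71%. At such a place an oligo(dT) primer could have bound inside the message. Ends without that sequence could not be checked and stayed in the fit without A-rich ends.

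The last 30 bases of the isoforms that carried the clearest changes are shown, each the end most used in the group named. Capitals mark AATAAA where it lies in the window, each sequence is 5′ to 3′ on the gene's strand, and the coordinates are those of build GRCm38. The maternal ends of Psmb6, Cwc15, Hsbp1 and Ccnb1 and the embryonic end of Cox6c lay outside the annotated transcripts used here.
Psmb6, embryonic, chr11:70527628-70527657, plus strand: agctAATAAAcagtttgttaaagagacgtt
Srp9, maternal, chr1:182132377-182132406, plus strand: acaagcatcctggttttgttgaagttttgg
Srp9, embryonic, chr1:182131797-182131826, plus strand: tttgctgcagtggtatgtttcttttggagt
Snu13, maternal, chr15:82041314-82041343, minus strand: aatgaaatatggcagctgtgcctgattttc
Snu13, embryonic, chr15:82041987-82042016, minus strand: tatattgtactacatctgcgttttatattt
Cwc15, embryonic, chr9:14510404-14510433, plus strand: tcccagtgttaactttctcagtctctttcc
Hsbp1, embryonic, chr8:119348292-119348321, plus strand: agttcccctccccactgctcctctgtggta
Ccnb1, embryonic, chr13:100779513-100779542, minus strand: gttgcttctgagtttaggctaacggaagtt
Cox6c, maternal, chr15:35931983-35932012, minus strand: agtttctttcAATAAAcagtaattatatgg
Of these 9 windows, those of Psmb6 and Cox6c held AATAAA, which began 26 and 20 nt before the end. The maternal end of Srp9 had AATAAA in the 10 bases just before its window. The other 6 had neither hexamer in 40 bases, which says only that these letters are not there.

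Depth and libraries set limits on what follows. An embryo had 4576 to 288828 UMIs on these isoforms, a cell 3385 to 248254 UMIs on all isoforms, and 2128 of the 2976 genes with ends at least 100 nt apart had a value in at least 1 embryo. L2C replicate 1 was the shallowest embryo, with 4576. The cells were sequenced in 3 runs, and each stage up to 16-cell had embryos in all of them, but the 32-cell cells were all of run 2, the blastocyst cells of run 1 and the mESC of run 3. Incomplete splice matches, transcripts that lack part of the annotated chain, took a median of 15.9% of UMIs in oocytes, 16.0% in zygotes, 19.5% in E2C and 14.9% in L2C, and 9.72% to 13.7% from 4-cell to 16-cell. The mean length over all isoforms of a cell had a median of 1414 nt in oocytes, 1375 nt in zygotes and 1370 nt in E2C. It was 1292 nt in L2C, 1366 nt in 4-cell, 1242 nt in 8-cell and 1207 nt in 16-cell cells, so it did not fall steadily. The part of these differences in the results was not tested. Markers of the stages were read from lists. The 8 oocyte genes summed to a median of 3643 copies per 100000 UMIs in oocytes, 691 in E2C and 105 in L2C. After L2C this median did not keep falling, and stages from 4-cell to 16-cell had values between 113 and 208. It dropped to 19.2 for the 32-cell stage, but blastocyst cells had 276 and mESC 140, with 5 of the 8 genes detected in mESC. Why the later sums were higher than that of L2C, and whether this bears on end use, was not tested. The 6 late 2-cell genes summed to a median of 11.2 in E2C and 10.0 in L2C, with the 4-cell median between them, and to at most 6.89 in any cell of the other stages, so they did not set L2C apart from E2C. Genes of cumulus cells, which cling to oocytes, summed to at most 9.81 in oocytes, where 5 of the list's 9 genes were detected, and none was detected in L2C. Of these 9 genes, 6 have a row in the table.

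End use was scored by a distal index, the UMI-weighted mean end position of a gene in an embryo, where 0 is the most proximal end of its isoforms and 1 the most distal. It was taken where ends spanned at least 100 nt and the gene had at least 10 UMIs in the embryo. Over the 142 genes measured in nearly all embryos, the embryo's median distal index averaged 0.671 ± 0.0427 for oocytes (SD, n = 10), 0.638 ± 0.0317 for zygotes (n = 9) and 0.643 ± 0.0333 for E2C embryos (n = 5). L2C embryos averaged 0.459 ± 0.0277 (n = 6), 4-cell embryos 0.482 ± 0.0763 (n = 5), 8-cell embryos 0.484 ± 0.0271 (n = 4) and 16-cell embryos 0.508 ± 0.0578 (n = 4). The 19 maternal samples lay between 0.594 and 0.733 and the 19 embryonic ones between 0.370 and 0.563, with no overlap, and the 5 E2C embryos lay inside the maternal range. The 4 embryonic stages overlapped each other.

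**Figure D1:**
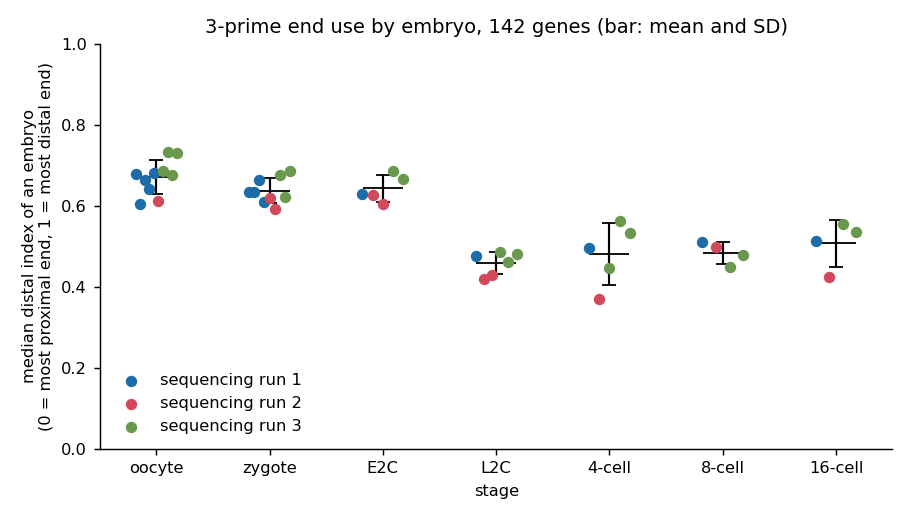
The median distal index of each embryo over the 142 genes measured in nearly all embryos (y, from 0, the most proximal end, to 1, the most distal) by stage (x), with a point per embryo and bars for the mean and SD. Oocytes, zygotes and E2C embryos sit at 0.594 or above, and all L2C to 16-cell embryos at 0.563 or below.

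The embryonic mean minus the maternal mean was -0.175 (permutation test, two-sided, p = 2e-05, which is the least possible with these resamples). The same held within each run, in two-sided exact permutation tests. The difference was -0.147 in run 1 (9 against 4 embryos, exact p = 0.0028), -0.180 in run 2 (3 against 5, exact p = 0.0357) and -0.188 in run 3 (7 against 10, exact p = 0.000103). With a mean over the 142 genes in place of the median the difference was -0.0728.

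Gene by gene, 245 genes had a value in at least 3 embryos of every stage of the comparison. In 95 the distal index fell from maternal to embryonic and in 44 it rose (limma, Benjamini-Hochberg adjusted p under 0.05), 56.7% of those tested. Of all genes tested 142, or 58.0%, had a difference below 0, with a median of -0.00495. The called falls were larger than the called rises, with a median of -0.139, or -95.1 nt, against 0.0440, or 30.0 nt. The maternal and embryonic embryos did not overlap in 37 of the falls and 8 of the rises, where groups that do not overlap made up 18.4% of the genes tested.

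The genes that fell kept long ends through E2C and then used shorter ones in every stage from L2C. Their median index stood at 0.771 for oocytes, 0.763 for zygotes and 0.739 for E2C, then 0.428 in L2C, 0.476 in 4-cell, 0.449 in 8-cell and 0.460 in 16-cell embryos. In 68 of the 79 with an E2C value, that value was nearer the maternal side. These medians describe genes that the same contrast chose, and no test was made on them. In 77 of the 95 the isoforms shared 1 last splice acceptor, a share near that over all genes, 3537 of 4258. In 77 of the 82 that could be tested on their most used intron chain alone the fall was called there too. That fit used the same embryos and a part of the same UMIs, so this agreement was partly built in. The genes that rose had medians of 0.347, 0.355 and 0.484 in oocytes, zygotes and E2C and of 0.520 to 0.578 from L2C on. In 23 of the 35 rising genes with an E2C value, that value was nearer the maternal side. Of the genes that rose 30 of 44 had 1 last acceptor, and 30 of the 35 tested on 1 chain were called.

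Psmb6, a catalytic subunit of the proteasome core, had the largest fall of the genes that met the naming conditions here. Its index was 0.535 to 0.874 in maternal samples, with a median of 0.711, and 0.0129 to 0.190 in embryonic ones, with a median of 0.0433. The groups did not overlap, and the difference was -0.645 ± 0.027 (SE; limma, adjusted p = 2.4e-21), or 143 nt of the 222 nt between its outermost ends. The isoform that ends at the AATAAA site shown for the gene took 28.6% of its UMIs in maternal and 92.9% in embryonic samples, and the one that ends 222 nt from the most proximal end took 68.4% and 4.62%.

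Srp9, Cwc15 and Snu13 also fell by large amounts. Srp9, a subunit of the signal recognition particle, had an index of 0.813 to 1 in maternal samples (median 0.901) and 0.175 to 0.424 in embryonic ones (median 0.295), a difference of -0.592 ± 0.018 (SE; limma, adjusted p = 5.0e-26). Its isoform with the most distal end, 704 nt out, went from 81.0% to 12.4% of the gene's UMIs, and the one with the printed embryonic end, 124 nt out, from 8.65% to 50.8%. Cwc15, a spliceosome component, had 0.941 to 0.989 in maternal samples (median 0.974) and 0.296 to 0.521 in embryonic ones (median 0.394). The end printed for Cwc15 took 2.21% of UMIs before and 65.0% after, with the same 7 exons. Snu13, a protein of the U4 particle and of box C/D small nucleolar RNPs, had 0.455 to 0.809 (median 0.754) and 0.155 to 0.397 (median 0.269), and its 2 printed ends lie 673 nt apart and exchanged 85.0% against 29.1% and 9.36% against 60.5% of UMIs. In none of these genes did the groups overlap, and the differences of Cwc15 and Snu13 were -0.566 ± 0.014 and -0.468 ± 0.020 (SE; limma, adjusted p = 1.7e-29 and 1.9e-22).

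**Figure D2:**
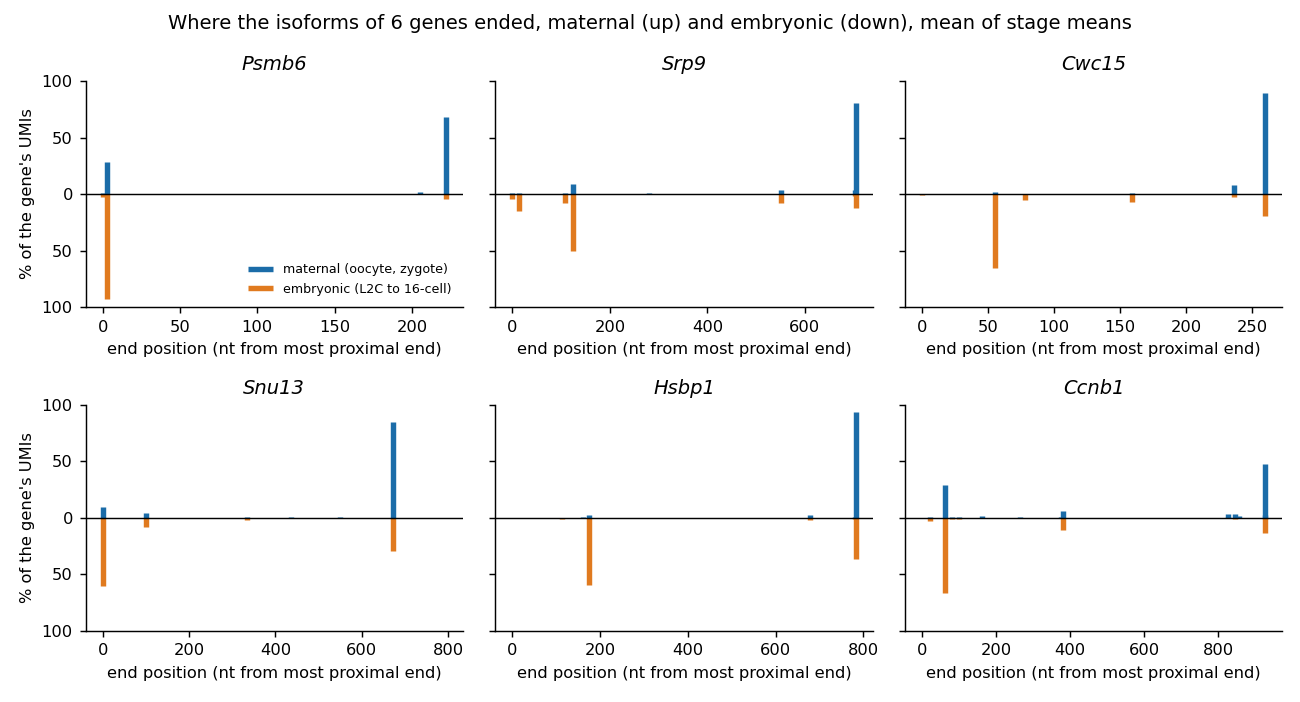
The share of a gene's UMIs (y, percent) at each end position (x, nt from the most proximal end) for 6 genes, maternal samples upwards and embryonic samples downwards, each the mean of the stage means. In Psmb6 the end 222 nt out holds 68.4% of maternal and 4.62% of embryonic UMIs, and in Cwc15, Srp9, Snu13, Hsbp1 and Ccnb1 the most used end is likewise the nearer one in embryonic samples.

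Hsbp1, a small protein that binds heat shock factor, had an index of 0.904 to 0.999 in maternal samples (median 0.973) and 0.285 to 0.828 in embryonic ones (median 0.513), a difference of -0.442 ± 0.022 (SE; limma, adjusted p = 2.7e-19). Its embryonic samples spread widely but did not reach the maternal range. The printed end of Hsbp1 took 2.81% of its UMIs before and 59.4% after.

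Some falls in the index were not a simple choice of 3′ end. Fam104a had only 2 isoforms, which differ at both ends, so its end and start index are the same numbers: 0.828 to 0.983 in maternal (median 0.908) and 0.197 to 0.476 in embryonic samples (median 0.292), a difference of -0.599 ± 0.018 (SE; limma, adjusted p = 7.4e-26). Mrpl40, a protein of the large mitochondrial ribosomal subunit, had an index of 0.772 to 1 in maternal and 0.310 to 0.462 in embryonic samples, a difference of -0.531 (limma, adjusted p = 8.6e-23). Its start moved upstream at the same time, by 375 nt on average, and its spliced length rose by 0.26 on the log2 scale (limma, adjusted p = 3.2e-17), so the message was longer in embryonic samples although its 3′ end lay nearer. Rpl37a, a large ribosomal subunit protein, had 0.160 to 0.737 in maternal and 0.000 to 0.0227 in embryonic samples, a difference of -0.458 ± 0.045 (limma, adjusted p = 1.2e-11). Ribosomal protein genes have many processed copies in the genome, so its values are uncertain.

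Another 6 genes met the naming conditions in the other direction. Cox6c, a subunit of cytochrome c oxidase, had an index of 0.0452 to 0.243 in maternal samples (median 0.151) and 0.391 to 0.676 in embryonic ones (median 0.558), a difference of 0.406 ± 0.020 over an end span of only 101 nt (SE; limma, adjusted p = 2.3e-19). Its end at the printed AATAAA site went from 82.7% to 41.1% of UMIs. In run 4, of intact and divided oocytes and described at the end, Cox6c lay at 0.341 to 0.861, a range that covers the embryonic one. Hmgb2, a chromatin protein of dividing cells, had 0.421 to 0.900 (median 0.603) in 15 maternal and 0.974 to 1 in 18 embryonic samples, a difference of 0.371 ± 0.037 (SE; limma, adjusted p = 2.6e-10). The 5 oocytes or pieces of run 4 with a value of Hmgb2 lay at 0.809 to 1, which reaches the embryonic range. Brix1, a factor of large ribosomal subunit assembly, had 0.785 to 0.854 and 0.924 to 1, a difference of 0.137 ± 0.0064 (SE; limma, adjusted p = 4.4e-21), and 0.867 to 0.911 in run 4.

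Ubb, a polyubiquitin gene, moved least of the 6, by 0.0281 or 21.1 nt, from 0.872 to 0.904 in maternal samples to 0.906 to 0.943 in embryonic ones (limma, adjusted p = 8.5e-10). In run 4 it lay at 0.925 to 0.942, inside the embryonic range. Ak6, an adenylate kinase of the nucleus, and Eif2s2, the beta subunit of the initiation factor eIF2, rose by 0.273 and 0.318 (limma, adjusted p = 1.6e-16 and 3.5e-09), but their isoforms end up to 10524 and 16891 nt apart and differ in splicing. On the most used intron chain alone neither was called. In maternal samples Eif2s2 ranged from 0.368 to 0.847, and every embryonic sample lay between 0.934 and 0.946, but oocytes and pieces of run 4 lay at 0.947 to 0.974, above them all. Of the 6 genes, Cox6c, Hmgb2, Ubb and Eif2s2 had run 4 values that reached or passed the embryonic range, while Ak6, at 0.0164 to 0.0182, and Brix1 stayed below. The 8 genes described above whose index fell all lay above their embryonic range in run 4, from 0.642 upwards in Rpl37a and from 0.734 upwards in the other 7.

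**Figure D3:**
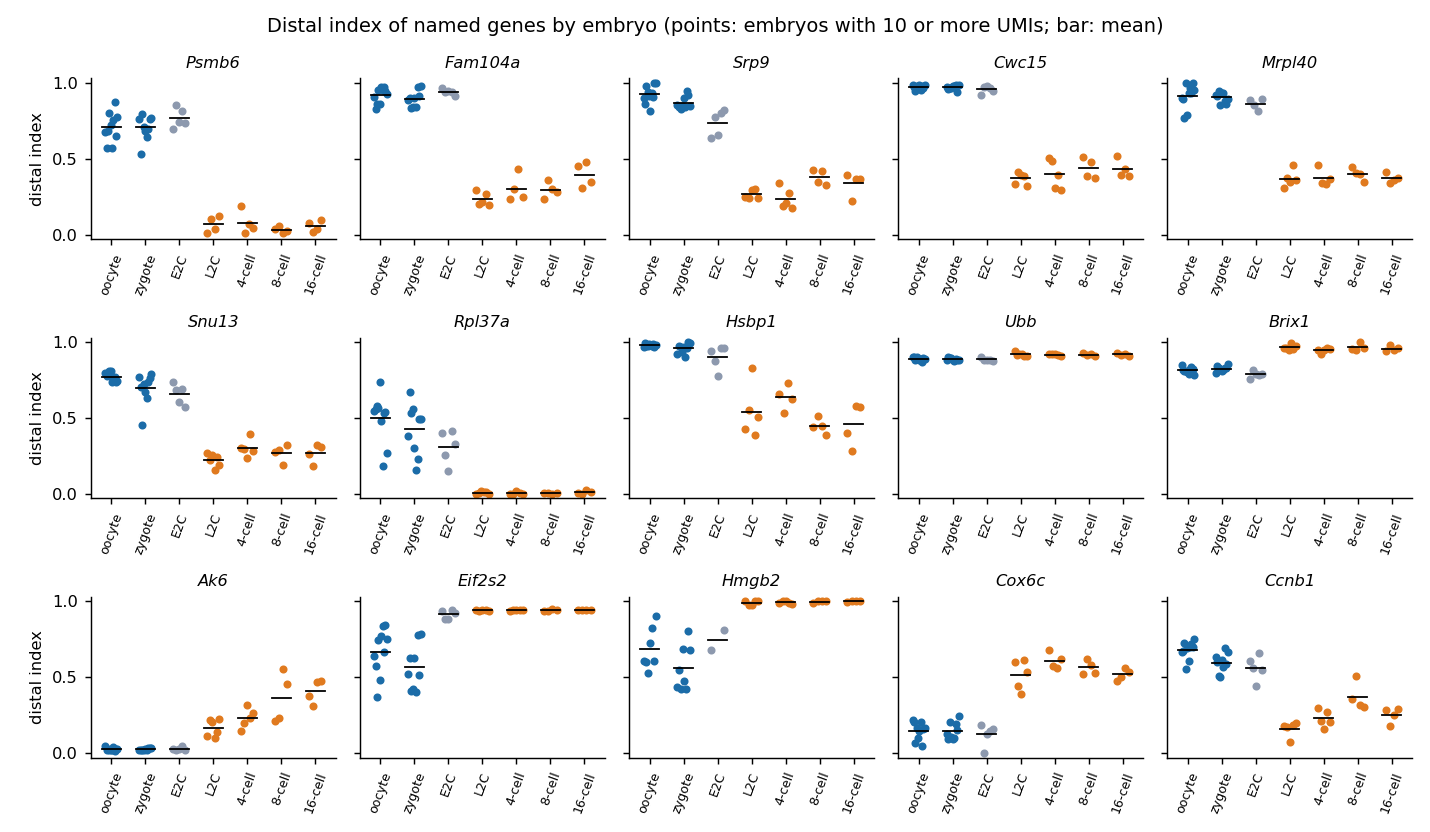
The distal index (y, 0 to 1) by stage (x) of the genes named for the maternal to embryonic comparison, with a point per embryo that had 10 or more UMIs of the gene and a bar at the mean. Psmb6, Fam104a, Srp9, Cwc15 and Mrpl40 stay high through E2C and are low from L2C, with Psmb6 at 0.698 or above in E2C and 0.120 or below in L2C, while Cox6c, Brix1 and Hmgb2 go the other way.

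Adjacent stages were compared next, and neighbouring comparisons share the embryos of 1 stage. Most calls fell at 1 step. From E2C to L2C 88 genes fell and 29 rose of 289 tested, 40.5% (limma, adjusted p under 0.05). The embryos of these 2 stages did not overlap in 69 of the falls and 12 of the rises, where 32.2% of the genes tested had groups that do not overlap. The median fall was -0.173, or 150 nt. Within the runs, the difference had the direction of the call in 17 of 17 falling genes with a value in run 1, 85 of 85 in run 2 and 88 of 88 in run 3. For the rising genes it did in 5 of 6, 27 of 29 and 27 of 29. The genes were called on these same embryos, so agreement in direction was partly built in. Run 1 had only 1 E2C and 1 L2C embryo.

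Every other step had few calls. From oocyte to zygote 22 genes fell and 4 rose of 778, 3.34% called. Zygote to E2C gave 20 falls and 6 rises of 554, 4.69%. From 4-cell to 8-cell the direction of most calls was the other one, with 23 rises and 4 falls of 554, 4.87%. L2C to 4-cell gave 4 rises and no fall of 543, 0.737%, where 51 genes had an unadjusted p under 0.05. The step from 8-cell to 16-cell gave 3 falls and no rise of 643, 0.467%, where 45 had an unadjusted p under 0.05.

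These smaller counts moved when single embryos were left out, which also took genes out of the test. Without E2C replicate 1, 3 or 4 the zygote to E2C step had 8, 13 or 10 calls. L2C to 4-cell had 1 or 0 without L2C replicate 3 or 4, 2 without 4-cell replicate 1 and 0 without 4-cell replicate 3, 4 or 5. For 4-cell to 8-cell the counts were 9 without 4-cell replicate 5 and 13, 10 and 11 without 8-cell replicates 1, 2 and 4. For 8-cell to 16-cell they were 1, 0 and 0 without 8-cell replicates 1, 2 and 4, and 5 without 16-cell replicate 1. Without 8-cell replicate 1, 2 or 4 only 14 of the 27 genes called from 4-cell to 8-cell and 1 of the 3 called from 8-cell to 16-cell could be tested.

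**Figure D4:**
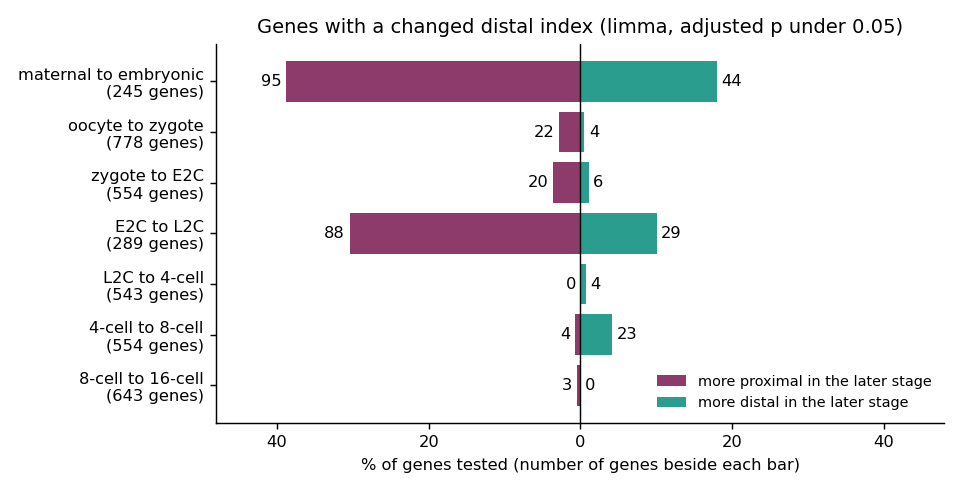
The share of tested genes whose distal index fell (left) or rose (right) in each comparison (x, percent; y, the comparison with its number of genes tested; limma, adjusted p under 0.05), with the number of genes beside each bar. E2C to L2C has 88 falls and 29 rises, and no other adjacent step has more than 23 in either direction.

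At the E2C to L2C step Fam104a and Psmb6 had the largest falls among the genes that met the naming conditions. Fam104a was at 0.967, 0.943, 0.944, 0.942 and 0.911 in the 5 E2C embryos and at 0.292, 0.200, 0.217, 0.267 and 0.197 in the 5 L2C embryos with a value. Its difference was -0.707 ± 0.041 (SE; limma, adjusted p = 1.2e-16). Psmb6 was at 0.698, 0.855, 0.740, 0.814 and 0.734 in E2C and at 0.0129, 0.101, 0.0388 and 0.120 in 4 L2C embryos, a difference of -0.690 ± 0.061 (SE; limma, adjusted p = 1.8e-11). In both genes every E2C embryo lay above every L2C embryo. Cwc15 fell by 0.584 and Brix1 and Cox6c rose by 0.181 and 0.388 (limma, adjusted p = 7.0e-18, 2.4e-13 and 6.5e-09). Ak6 rose by 0.148, and on its most used intron chain alone it went the other way, by -0.0776.

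Ccnb1 and Cnot7, with 22 and 25 isoforms, were chosen by name. Ccnb1 encodes cyclin B1, the partner of CDK1 that drives entry into M phase, and its maternal message is a classic case of control through the 3′ untranslated region. It was at 0.603, 0.561, 0.444, 0.658 and 0.550 in E2C and at 0.177, 0.171, 0.0707, 0.184 and 0.198 in L2C, a difference of -0.409 ± 0.046, or 380 nt (SE; limma, adjusted p = 2.2e-09). Maternal samples lay at 0.5 to 0.754 and embryonic ones at 0.0707 to 0.506, which overlap at 1 8-cell embryo. The end printed for Ccnb1 went from 28.9% to 66.5% of UMIs, and the most used maternal end, 927 against 62 nt from the most proximal end, from 47.3% to 13.6%. Between 4-cell and 8-cell it rose by 0.149 (limma, adjusted p = 0.0495), a call that 13 of the alternatives did not keep. Cnot7, a deadenylase of the CCR4-NOT complex that shortens tails, was at 0.962 to 0.983 in 5 E2C embryos and 0.374, 0.346 and 0.373 in 3 L2C embryos, a difference of -0.613 ± 0.071 (SE; limma, adjusted p = 2.5e-08). Its ends span 14760 nt, and its L2C values rest on a median of 11 UMIs. Its most used isoform in embryonic samples, 783 nt long with 3 exons, took 0.749% of maternal and 61.8% of embryonic UMIs. The most used maternal isoform had 7 exons and 2575 nt and ended 14760 nt further out. These isoforms differ in splicing as well as at their ends, so the fall was not a simple choice of 3′ end.

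At the other steps the named genes were few. From zygote to E2C Eif2s2 rose by 0.354, to 0.937, 0.886, 0.882, 0.944 and 0.925 in E2C, and Tmem14c, a mitochondrial carrier of heme synthesis, fell by 0.0297, or 7.03 nt (limma, adjusted p = 0.0026 and 4.2e-05). On its most used intron chain alone Eif2s2 changed by 0.0103 (limma, adjusted p = 0.831), and after thinning to 10 UMIs Tmem14c changed by -0.00944 (limma, adjusted p = 0.843). Cenps, a histone-fold protein of the centromere, rose by 0.154 (limma, adjusted p = 0.046), a call lost when any 1 of the E2C embryos was left out and reversed to -0.0115 without ends that precede an A-rich stretch.

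From L2C to 4-cell Dnajb9, an endoplasmic reticulum co-chaperone, was at 0.489, 0.441, 0.473, 0.541 and 0.490 and then at 0.759, 0.787 and 0.788, a rise of 0.292 (limma, adjusted p = 0.022). The stages did not overlap, but the call was lost in 8 of the alternatives. From 4-cell to 8-cell Bzw1, a regulator of translation initiation, went from 0.244, 0.312, 0.229 and 0.269 to 0.413, 0.578 and 0.496, a rise of 0.237 (limma, adjusted p = 0.0028). Oser1 rose by 0.202 and Eef1e1, a scaffold of the tRNA synthetase complex, by 0.269 (limma, adjusted p = 0.0030 and 0.012). Thinning to 10 UMIs lost the calls of Bzw1 and Eef1e1 (limma, adjusted p = 0.202 and 0.522) and edgeR those of Bzw1 and Oser1 (adjusted p = 0.415 and 0.209), and Eef1e1 was at -0.0106 on its most used intron chain. Without 4-cell replicate 5 Eef1e1 rose by less, 0.214, and was not called (limma, adjusted p = 0.0920). From 8-cell to 16-cell Ube2l3, a ubiquitin-conjugating enzyme, fell by 0.0286 (limma, adjusted p = 0.025), and 10 of the alternatives lost that call.

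The change in share can come from either end. The copies per 100000 UMIs of isoforms in the far and in the near part of each gene's range, split at an index of 0.5, were compared on the scale of log2(value + 1). Among the 88 genes that fell from E2C to L2C the far part changed by a median of -1.26, with 69 below 0, and the near part by 0.98, with 66 above 0. In the 95 that fell from maternal to embryonic the far part changed by -0.57 and the near part by 1.22, with 65 below and 76 above 0. Among the 29 that rose from E2C to L2C the near part changed by -0.91, with 25 below 0, and the far part by 0.12. In the 44 that rose from maternal to embryonic the balance was the other one. Their far part changed by 0.91, with 33 above 0, and their near part by -0.27, with 27 below 0. All these genes were chosen by their index, so opposite changes of the far and near parts were partly built in. Copies are given per 100000 UMIs, so the loss of a form and the growth of the rest cannot be told apart, and no test was made on them.

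Starts and lengths moved as well. The start index, 1 at the most upstream start, fell in 61 and rose in 39 of 270 genes from maternal to embryonic, 37% called (limma, adjusted p under 0.05), with median changes of -35.3 and 40.9 nt. Of the 95 genes whose 3′ end fell, 47 of 85 tested also had a called start. The start index of Syf2, a splicing factor, was 0.960 to 1 in maternal and 0.257 to 0.686 in embryonic samples, with no overlap, a difference of -0.525 ± 0.021 (SE; limma, adjusted p = 4.9e-22). Starts of full splice match isoforms need not be transcription starts, since a cDNA that stops early also begins downstream.

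The spliced length fell in 108 and rose in 57 of 299 genes, 55.2% called, and the median fall was to 0.941 of the maternal length. The last exon, taken only among isoforms that share the last acceptor, shortened in 92 and lengthened in 36 of 229 genes, 55.9% called, to a median of 0.855 and 1.04 of the maternal length (limma, adjusted p under 0.05). Of the 95 genes whose index fell, the last exon fell in 85 of the 91 tested. Both measures rest on the same ends and UMIs, so this agreement was largely built in. Cdc42, a small GTPase of cell polarity, and Tpd52l2 had the largest falls, by 1.07 and 1.05 on the log2 scale, to 0.476 and 0.483 of the maternal length (limma, adjusted p = 8.2e-19 and 7.6e-26). The last exon of Cdc42 was at a log2 length of 9.98 to 10.6 in maternal and 8.64 to 9.73 in embryonic samples, and that of Tpd52l2 at 9.78 to 10.0 and 8.61 to 9.16, with no overlap in either. Pole4, a subunit of DNA polymerase epsilon, lost 0.60 on the log2 scale of spliced length (limma, adjusted p = 2.0e-21).

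Genes of the 3′ end machinery were looked at from a list of 45. From E2C to L2C 14 rose and 17 fell (limma, adjusted p under 0.05 and a log2 change over 1), where 26.8% of all 11682 genes tested rose and 24% fell, and the list's median log2 change was -0.03 against 0.03 over all genes. The 20 genes of nuclear cleavage and polyadenylation had 11 rises and 2 falls, with a median of 1.26. The 15 of cytoplasmic tail extension and 3′ untranslated region binding had no rise and 9 falls, with a median of -1.09, and of the 5 deadenylation genes 4 fell and 1, Cnot8, rose. Of 5 poly(A) binding genes 2 rose and 2 fell.

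Papola, the nuclear poly(A) polymerase, was at 2.65 to 9.59 copies per 100000 UMIs in E2C (median 7.26) and 51.1 to 90.2 in L2C (median 65.6), without overlap, a log2 change of 3.23 ± 0.34 (SE; limma, adjusted p = 2.0e-12). Nudt21, the cleavage factor subunit that binds UGUA, went from a median of 1.05 to 23.1, a log2 change of 2.92, although 1 L2C embryo had 0. Its partner Cpsf6 was at 3.78 to 4.62 and then at 13.2 to 31.5, a log2 change of 1.86 (limma, adjusted p = 0.00034). Fip1l1, which tethers the polymerase, fell by 1.34 (limma, adjusted p = 0.00059).

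On the maternal side Btg4, the adaptor that brings the deadenylase to maternal messages, was at 498 to 661 copies in E2C and 20.2 to 86.5 in L2C, and fell by 4.04 on the log2 scale (limma, adjusted p = 1.9e-11). Zar1, an oocyte RNA-binding protein, fell by 3.92 from a median of 26.1 to 0.868. The deadenylases Cnot6l and Cnot7 changed by -3.69 and -2.44 (limma, adjusted p = 1.0e-10 and 6.9e-10). Cpeb1, which binds the cytoplasmic polyadenylation element, fell by 2.39 and Elavl2 by 2.64 (limma, adjusted p = 6.2e-07 and 6.8e-07). Pabpc1, the somatic poly(A) binding protein, rose by 3.87 from 1.58 to 37.2 copies while the oocyte form Pabpc1l fell by 3.22.

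Single cells were compared with the oocyte mean of the same genes. Each cell had its own set of genes, from 35 in a 4-cell cell to 533 in oocytes, and 120 to 177 in mESC. The median cell differed by 0.00159 among oocytes, by -0.0175 among zygotes and by -0.0142 among E2C cells. For L2C cells the median was -0.0835, for 4-cell -0.0707, for 8-cell -0.0522 and for 16-cell -0.0605, and all cells from E2C on were below 0. The 32-cell cells had -0.105 to -0.0610 (median -0.0795), blastocyst cells -0.0730 to -0.0292 (median -0.0542) and mESC -0.0387 to -0.0110 (median -0.0195).

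These values also differed between runs, or between the embryos in them, since run 2 holds 1 embryo of the 16-cell stage. The 15 cells of that embryo lay at -0.116 to -0.0772 and those of runs 1 and 3 at -0.0674 to -0.0113, with no overlap, and the 32-cell cells are all of run 2. The 8-cell cells of the 3 runs had medians of -0.0516, -0.0526 and -0.0500. An order among the later stages is therefore not read from them, and stage and run cannot be told apart in 32-cell, blastocyst and mESC cells. Among named genes pooled over such cells, Psmb6 stayed at 0.0283 in 32-cell, 0.0508 in blastocyst and 0.0984 in mESC, and Cwc15 was at 0.358, 0.535 and 0.667.

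**Figure D5:**
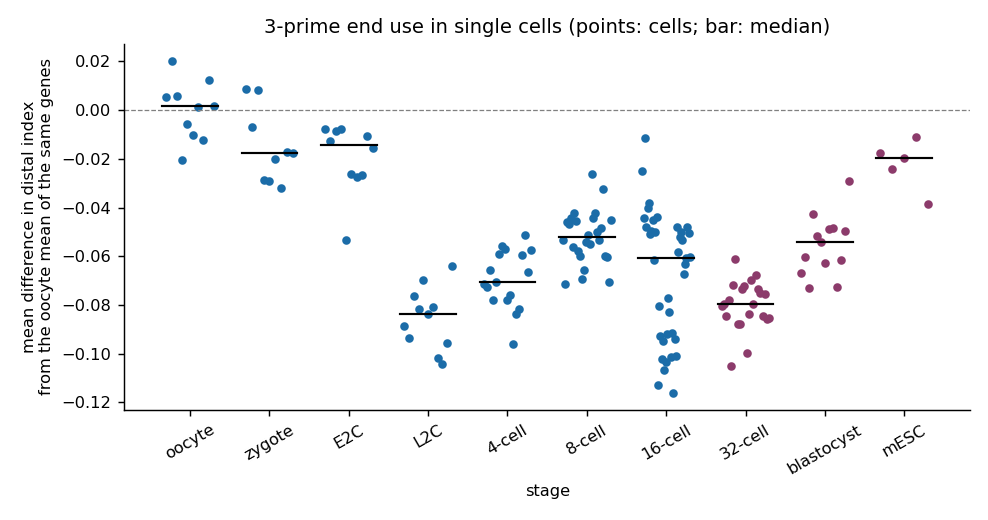
The mean difference in distal index of each cell from the oocyte mean of the same genes (y, 0 is the oocyte level) by stage (x), with a point per cell and a bar at the median. L2C cells have a median of -0.0835 against -0.0142 in E2C. The 5 mESC have a median of -0.0195, but stage and run cannot be told apart in them.

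The measure was also taken with less input. In run 4 oocytes were used intact or divided in 2 or in 4. Intact oocytes had 65702 to 95510 UMIs on these isoforms. Pieces of those divided in 2 had 42182 to 98841, and of those divided in 4 46067 to 92820. Embryos of L2C had 4576 to 53428, so the pieces do not show the measure at the lowest embryo depths. Over 105 genes shared with runs 1 to 3, 4 intact oocytes had a median distal index of 0.790 to 0.798, 6 pieces of oocytes divided in 2 had 0.766 to 0.810 and 6 of those divided in 4 had 0.766 to 0.788. The smallest pieces lay just below the intact oocytes, by 0.00943 between medians. Pieces of 1 oocyte are not marked as such, so no test was made. Over the same genes and isoforms the oocytes of the first 3 runs lay at 0.608 to 0.731 and the L2C embryos at 0.441 to 0.565. Oocytes of different runs thus differed by more than intact and divided ones did, and L2C embryos lay below both sets.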

How the data were processed

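The authors deposited isoform and gene tables for single cells of runs 1 to 3 as CPM divided by 10, that is copies per 100000 UMIs of a cell. Sets of few columns hold the same quantity and were read as a score, by the authors' scaling, and the deposited table of run 4 holds whole UMI counts. Whole UMIs were recovered from 100% of the values, within a tolerance of 0.1. Per the methods of the study, reads were aligned to mm10, collapsed and classed with SQANTI3, and isoforms seen in fewer than 5 cells were removed, so ends used in few cells are missing.

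From these files the cells of an embryo were summed. The distal index, start index, spliced length and last exon length were fitted over all genes with limma 3.58.1 (array weights, eBayes) in R 4.3.3, with Benjamini-Hochberg adjusted p under 0.05, for genes with a span of at least 100 nt and at least 10 UMIs in at least 3 embryos of each stage. Gene levels were fitted on log2(value + 1), with at least 1 copy in 4 embryos. Single values used permutation tests, exact or with 100000 resamples. The scripts were tested on simulated data. Python 3.11.15, numpy 2.4.6 and pandas 2.3.3 were used.

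The run of each embryo was worked out by matching cell barcodes and totals to the study's lists. Replicates are the embryos in the column names, and nothing else says how they were kept apart. The members and lists were chosen with earlier results of these data known. Named genes are those with the largest called changes (up to 8 each way, or 3 at adjacent steps and for starts and lengths), groups that do not overlap and a median of at least 20 UMIs on both sides, plus Ccnb1 and Cnot7. Cfdp1, chosen likewise, is not a member. For the E2C to L2C step, the start index, spliced length and last exon length, 1 gene each that met these conditions is not reported here.

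Alternatives were a minimum of 5 or 20 UMIs, no array weights, cell means, thinning to 10 UMIs, edgeR 4.0.16, a span of 200 nt, no A-rich ends and each E2C, 4-cell, 8-cell and 16-cell embryo left out. After seeing the data, run as a block, 1 intron chain per gene and each L2C embryo left out were added. No oocyte or zygote was left out.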

Additional observations from a re-analysis of the deposited data

Results flagged for a closer look

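Of 262 groups of 4 to 10 embryos examined for the named genes, 20 had 1 embryo far from the others, by Dixon's criterion at the 95% level. Chance gives about 1 in 20 such groups. No explanation was tested for any of them.

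In the distal index, 1 16-cell embryo had the lowest Srp9 value, 0.222 against 0.367 for the next, and 1 zygote the lowest Snu13 value, 0.455 against 0.633. For Rpl37a 1 4-cell embryo was highest at 0.0177 against 0.00454. Ube2l3 was at 0.0146 in 1 16-cell embryo against 0.00363. Ccnb1 was at 0.0707 in 1 L2C embryo against 0.171. In E2C, 1 embryo was lowest for Oser1, at 0.845 against 0.924, and 1 for Eef1e1, at 0.941 against 0.995. Eif2s2 was at 0.942 in 1 16-cell embryo against 0.940.

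Hmgb2 gave 9 of the 20, all in stages where nearly every embryo sits at the limit of the scale. Its distal index was 0.990 in 1 8-cell and 0.996 in 1 16-cell embryo where the others were at 1. Its start index was 0.974 in 1 L2C, 0.990 in 1 8-cell and 0.999 in 1 16-cell embryo. The log2 spliced length was 10.5 and 10.51 and the log2 last exon length 9.19 and 9.20 in the same 8-cell and 16-cell stages.

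In log2 spliced length, Cdc42 was lowest in 1 oocyte, at 10.84 against 10.97, and in 1 zygote, at 10.71 against 10.88. Srp9 was at 9.70 in 1 16-cell embryo against 9.87.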

How the results depend on the processing

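From maternal to embryonic the 139 calls on the distal index became 274 with a minimum of 5 UMIs and 74 with 20, where more or fewer genes could be tested. Of the 139, 133 kept call and direction with 5 UMIs, 69 of the 70 tested with 20 and 105 after thinning to 10 UMIs. With run as a block 129 did, and on 1 intron chain 107 of 117. With edgeR 124 stayed called, but its direction was taken from the main fit and was not tested again. The thinned fit changed the sign of 1 gene, the fit without A-rich ends of 1 and the 1-chain fit of 3. At the other steps edgeR, which tests isoform use and not end position, kept 4 of 26 calls from oocyte to zygote, 8 of 26 from zygote to E2C, 90 of 117 from E2C to L2C and, at the 3 steps from L2C on, 0 of 4, 4 of 27 and 0 of 3. The cause of lost calls was not tested.

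With 5 and 20 UMIs the start had 169 and 56 calls (100 as reported), the spliced length 300 and 91 (165) and the last exon 249 and 71 (128), and thinning left 55 for the start. E2C to L2C, with 117, had 205 with 5 UMIs, 64 with 20 and 75 after thinning. Oocyte to zygote, with 26, had 52 with 5 UMIs, 8 without array weights and 3 after thinning. Zygote to E2C, with 26, had 13 with 20 UMIs and 8 after thinning. L2C to 4-cell, with 4, had 2 with 20 UMIs, 9 without array weights, 1 after thinning and 0 with edgeR. For 4-cell to 8-cell, with 27, there were 11 after thinning, 10 with edgeR and 14 on 1 chain. For 8-cell to 16-cell, with 3, there was 1 with 5 UMIs, 1 with cell means, 1 after thinning and 0 with edgeR.

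Leaving out 1 embryo of the E2C to 16-cell stages (no oocyte or zygote was left out) gave 95 to 140 calls from maternal to embryonic, 84 to 115 from E2C to L2C, 8 to 32 from zygote to E2C, 0 to 5 from L2C to 4-cell, 9 to 33 from 4-cell to 8-cell and 0 to 5 from 8-cell to 16-cell.

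Of 1294 values for named genes, 1235 kept direction and side of the threshold, 49 lost the call, 5 gained it and 5 reversed. The edgeR values among them took their direction from the main fit, so they could not reverse. The reversals were Cenps from zygote to E2C without A-rich ends (-0.0115), Ak6 from E2C to L2C (-0.0776) and Eef1e1 from 4-cell to 8-cell (-0.0106) on 1 chain, and, both uncalled, Cnot7 from oocyte to zygote with run as a block (0.000692) and Ccnb1 from L2C to 4-cell after thinning (-0.00623).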
